A study of Mus musculus with 8 samples.

Results

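The genes described here are 51 mouse genes that are commonly induced by type I interferon and whose products act against viruses or tune that defence. They were taken by symbol from a table of counts for 55376 genes in bone-marrow-derived macrophages. The set was chosen with earlier results of these data known. All 51 were in the table, and all 51 had enough counts to be tested, as did 13721 genes in all.

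Type I interferons are secreted proteins that signal through a receptor made of Ifnar1 and Ifnar2. The kinases Jak1 and Tyk2 then phosphorylate STAT proteins, which join Irf9 and bind a DNA motif called the interferon-stimulated response element in the promoters of target genes. Irf7, itself a target, raises interferon production further. Macrophages keep such genes on at a low level without infection, through small amounts of interferon made by the culture. IL-6 signals through a different receptor and mainly through Stat3.

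The cells were macrophages grown from the marrow of male mice, 13 weeks old, either DNMT3A-HET or wild type (WT). DNMT3A is a DNA methyltransferase that is often mutated in clonal blood disorders. The labels name 3 mice per genotype, and every culture received M-CSF at 50 ng/mL. The control groups received nothing further, and the IL-6 groups received 10 ng/mL from day 6 for 2 days, with RNA collected from all groups on day 8. Each of the 4 groups, WT control, WT IL-6, HET control and HET IL-6, had 2 libraries of polyadenylated RNA. No label ties a library to a mouse or mentions pooling, and p-values therefore measure only how far these libraries spread, some of which may be technical.

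The libraries held 18926641 to 50137897 counts, the deepest being HET IL-6 number 2 and the next deepest holding 24881197. Levels are given as CPM, the usual library-scaled counts, here with TMM factors, for libraries number 1 and number 2 in that order. Dnmt3a, the gene that names the genotype, stood at 275 and 244 CPM in the WT control libraries, against 166 and 248 CPM in HET control. With IL-6 the WT libraries held 175 and 183 CPM of it, and those labelled HET 140 and 213 CPM. In control the log2 difference of HET from WT was -0.32 ± 0.25 (standard error, edgeR adjusted p = 0.506) and after IL-6 -0.02 ± 0.25 (edgeR adjusted p = 0.972), so the RNA level did not separate the genotypes and they are known from the labels alone. The labels do not say what the HET allele removes. The 8 macrophage markers checked (Adgre1, Csf1r, Cd68, Itgam, Mertk, Fcgr1, Lyz2 and Cd14) summed to 11898 to 14141 CPM per library. Markers of T and NK cells summed to at most 0.126 CPM, those of B cells to at most 1.42 CPM with Pax5 at 0, and those of conventional dendritic cells to at most 1.85 CPM.

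Promoter sequence does not come from these libraries. RefSeq promoters, taken as 250 bases before to 50 bases after a transcription start in GRCm38.p6, were found by symbol for 39 of the 51 genes. The core of the interferon-stimulated response element, searched as a pair of GAAA words with any 2 bases between them on either strand, stood in at least 1 promoter of 21 of the 39 (53.8%) and of 1079 of all 27025 genes of that table (3.99%). With only the bases before the start searched, the shares were 43.6% and 3.46%. The core bound by STAT dimers, TTCNNNGAA, which reads the same on both strands, stood in 9 of the 39 (23.1%) and in 9.55% of all genes, and before the start in 15.4% and 8.13%. A match describes the letters of the window and not a bound site. Below are the 250 bases before the start for 6 genes, 5′ to 3′ on the strand of the gene, with each match to the response element core on either strand in capitals. Ifit3 and Ifit3b lie in 1 gene cluster, with Ifit1bl1 between them, and have near-identical promoters and the same pair of matches, and they had some of the largest differences described below. Ifit3 lies at chr19:34583279-34583528 on the plus strand and Ifit3b at chr19:34607707-34607956 on the plus strand.
Ifit3: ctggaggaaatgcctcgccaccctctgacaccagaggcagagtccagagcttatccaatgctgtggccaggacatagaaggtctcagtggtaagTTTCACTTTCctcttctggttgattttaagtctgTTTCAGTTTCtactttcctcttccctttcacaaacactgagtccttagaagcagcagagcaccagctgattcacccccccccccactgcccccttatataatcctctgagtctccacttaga
Ifit3b: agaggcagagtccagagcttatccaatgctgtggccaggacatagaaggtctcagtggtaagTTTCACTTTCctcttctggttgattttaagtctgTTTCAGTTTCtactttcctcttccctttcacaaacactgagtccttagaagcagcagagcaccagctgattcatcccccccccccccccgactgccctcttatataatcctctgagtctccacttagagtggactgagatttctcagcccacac
Isg15, at chr4:156200819-156201068 on the minus strand, is shown for a run of 3 overlapping matches. Oas1g, at chr5:120887614-120887863 on the minus strand, is shown because its matches end close to the start and because its response differed between the genotypes.
Isg15: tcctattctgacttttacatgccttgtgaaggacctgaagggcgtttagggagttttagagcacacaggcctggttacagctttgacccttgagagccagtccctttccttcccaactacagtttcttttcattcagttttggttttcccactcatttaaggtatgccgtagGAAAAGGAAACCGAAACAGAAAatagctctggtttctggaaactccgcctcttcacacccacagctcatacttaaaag
Oas1g: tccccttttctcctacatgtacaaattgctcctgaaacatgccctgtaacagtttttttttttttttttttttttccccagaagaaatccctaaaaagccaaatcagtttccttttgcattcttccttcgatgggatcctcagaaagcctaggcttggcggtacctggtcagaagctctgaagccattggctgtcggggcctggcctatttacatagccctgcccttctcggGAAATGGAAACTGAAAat
Oasl1, at chr5:114922990-114923239 on the plus strand, and Cmpk2, at chr12:26468965-26469214 on the plus strand, are shown as strong responders without a match in this window.
Oasl1: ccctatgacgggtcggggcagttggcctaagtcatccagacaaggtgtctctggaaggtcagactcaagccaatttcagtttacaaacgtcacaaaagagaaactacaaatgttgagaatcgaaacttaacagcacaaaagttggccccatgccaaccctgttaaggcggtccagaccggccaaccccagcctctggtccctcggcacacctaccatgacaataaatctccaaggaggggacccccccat
Cmpk2: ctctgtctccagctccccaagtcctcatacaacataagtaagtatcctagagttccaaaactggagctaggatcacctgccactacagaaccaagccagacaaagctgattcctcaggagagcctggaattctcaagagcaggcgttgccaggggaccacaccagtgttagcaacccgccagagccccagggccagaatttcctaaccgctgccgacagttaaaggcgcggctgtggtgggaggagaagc
In Ifitm3 both matches lie just after the start, in a stretch of 27 bases at chr7:141010716-141010742 on the minus strand.
Ifitm3: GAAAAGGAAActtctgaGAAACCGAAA

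After 2 days of IL-6 nearly the whole set was lower in both genotypes. Because the set was chosen with earlier results known, the shares of all genes given beside it are descriptions. Averaged over genotype, 49 of the 51 genes fell and 0 rose by edgeR's quasi-likelihood test at an adjusted p under 0.05, where 12.8% of all genes tested were called lower and 10.8% higher. None was higher at an unadjusted p under 0.05 either, and DESeq2 also called 49 lower and 0 higher. Of all genes called, 45.8% were higher, and 34.8% when libraries were scaled to total counts alone, under which the set again gave 49 lower and 0 higher. The median log2 change was -0.84, a 1.79-fold lower level, against -0.012 over all genes tested, and 19 genes fell at least 2-fold. The 2 genes not called were Ifi27l2a at -0.12 ± 0.09 (edgeR adjusted p = 0.398) and Ifitm3 at -0.13 ± 0.08 (edgeR adjusted p = 0.296). For 48 genes both IL-6 libraries lay below both control libraries in WT and again in HET, a pattern found for 12.8% of all genes tested, with the reverse for 12.2%. In bulk RNA, fewer cells expressing a gene and less RNA per cell cannot be told apart.

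**Figure D1:**
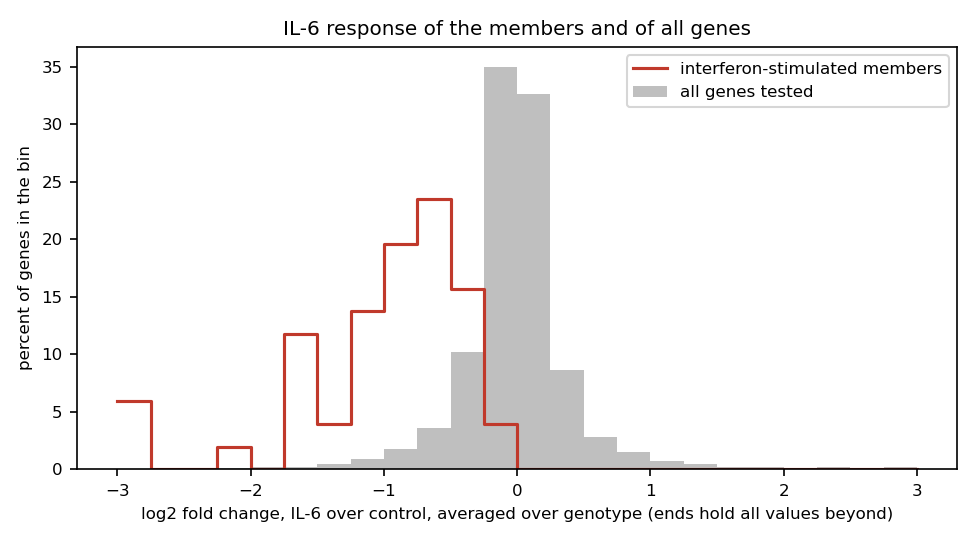
Percent of genes per bin (y axis) by log2 fold change of IL-6 over control averaged over genotype (x axis, the end bins hold all values beyond), for the 51 interferon-stimulated genes (red line) and all 13721 genes tested (grey bars). The red line lies wholly below 0, with its median at -0.84, while the grey bars centre near 0 (median -0.012).

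Summed over the 51 genes, the level per library was 11087 and 10841 CPM in WT control and 9963 and 11052 CPM in HET control. After IL-6 it was 6566 and 6450 CPM in WT and 7246 and 7081 CPM in HET. The genes thus took 1.01% to 1.12% of all counts in the control libraries and 0.636% to 0.718% in the IL-6 libraries, with no overlap. Within WT 49 genes fell (10.4% of all genes tested were called lower and 7.91% higher), with a median of -0.87, and 20 of them fell at least 2-fold. Both WT IL-6 libraries lay below both WT control libraries for 50 genes, as for 28.4% of all genes tested, with 24.1% the other way. Within HET 48 fell (9.41% of all genes tested were called lower and 8.87% higher), with a median of -0.81, and 16 fell at least 2-fold. The HET libraries were apart in that direction for 49 genes, as for 32% of all genes tested, with 32.8% the other way. The genes not called were Ifit1bl1 and Ifitm3 in WT, and Ifi27l2a, Ifitm3 and Trim25 in HET, and those whose libraries overlapped were Ifit1bl1 in WT and Ifi27l2a and Ifitm3 in HET. Markers of monocytes summed to 26.8 to 47.1 CPM in control libraries and 41.0 to 77.6 CPM in IL-6 libraries. Markers of plasmacytoid dendritic cells, which make much type I interferon, summed to 122 to 138 CPM in control and 149 to 161 CPM after IL-6, mostly from Tcf4, with Klk1 and Ly6d at 0. Within each genotype both sums were higher after IL-6, and their part in the lower levels of the interferon-stimulated genes was not tested.

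**Figure D2:**
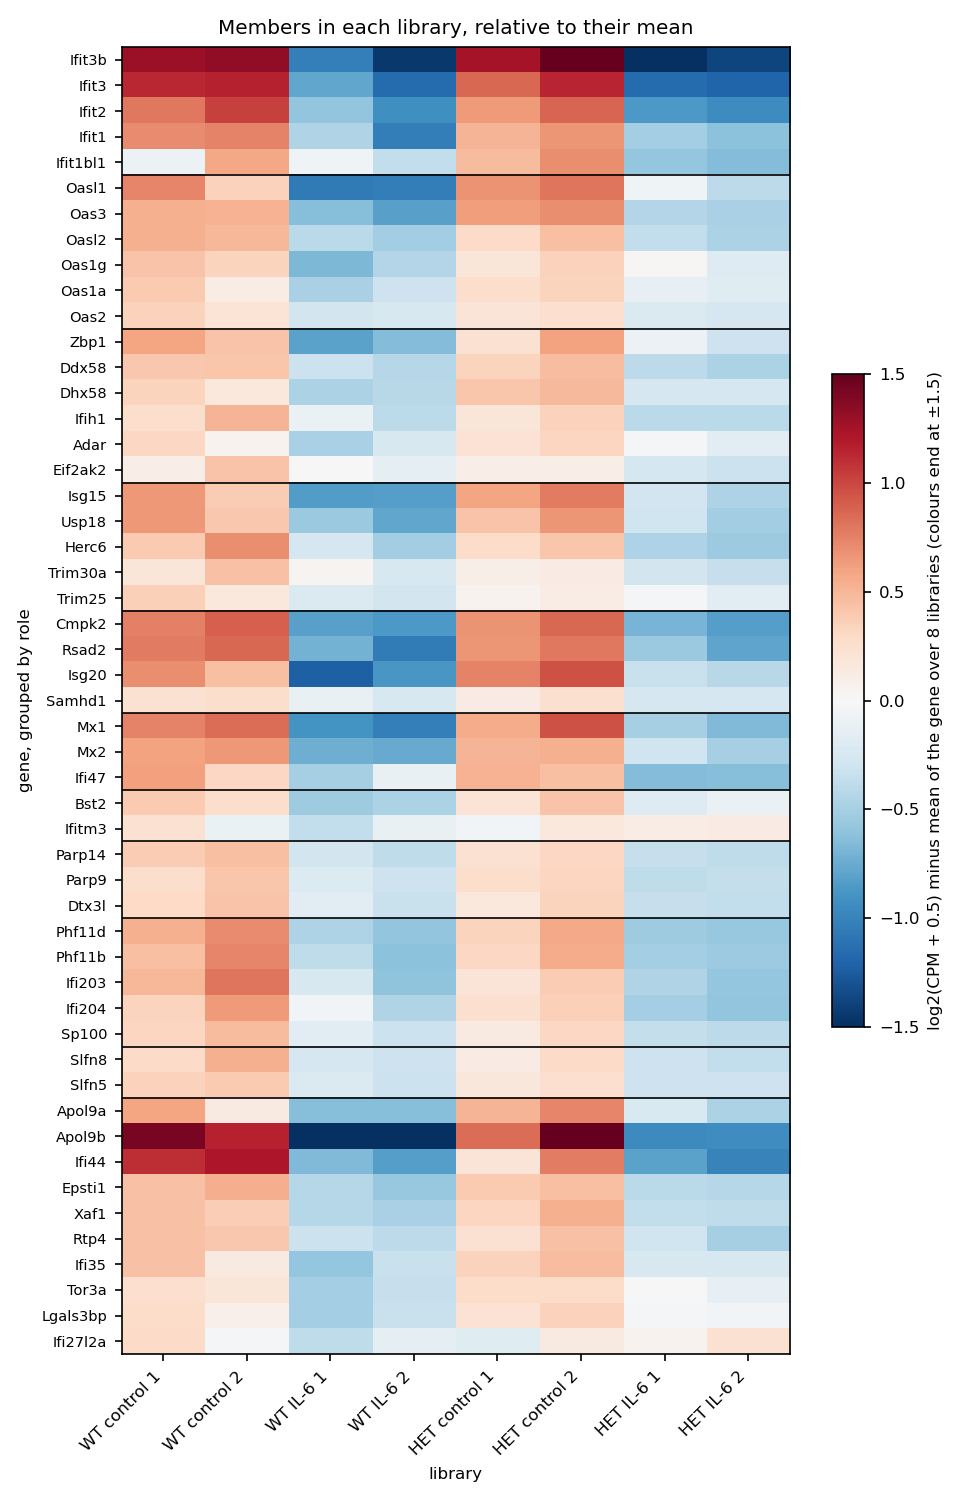
Level of each of the 51 genes (rows, grouped by role) in each of the 8 libraries (columns), as log2(CPM + 0.5) minus the gene's mean over the libraries, with colours ending at ±1.5. The 4 control libraries are red and the 4 IL-6 libraries blue for most rows. Rows with small changes are pale, among them Ifitm3 and Ifi27l2a, whose HET libraries overlap between treatments.

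The IFIT genes, which lie together on chromosome 19 and encode proteins that bind foreign RNA and block its translation, held the largest group change. All 5 fell, with a median of -1.66. Ifit3b was at 29.0 and 29.7 CPM in WT control, 5.42 and 3.91 CPM in WT IL-6, 28.0 and 33.7 CPM in HET control and 3.73 and 4.15 CPM in HET IL-6. Every IL-6 library of Ifit3b was thus far below every control library, with a log2 change of -2.79 ± 0.10 (edgeR adjusted p = 1.64e-10). Ifit3 fell from 162 to 197 CPM in control libraries to 38.1 to 51.6 CPM in IL-6 libraries (-2.15 ± 0.08). Ifit3 and Ifit3b share sequence, with 51.2% of the 50-base stretches of Ifit3 also in Ifit3b, so the split of reads between them is uncertain. Ifit2 fell by 1.66 ± 0.08 and Ifit1 by 1.30 ± 0.10 on the log2 scale. Ifit1bl1, the lowest of the family, was at 4.14 and 6.88 CPM in WT control, 4.22 and 3.32 CPM in WT IL-6, 6.39 and 7.49 CPM in HET control and 2.82 and 2.65 CPM in HET IL-6. Its WT libraries overlapped between treatments (-0.53 ± 0.23, edgeR adjusted p = 0.138), and its fall of 0.94 ± 0.16 on the log2 scale over both genotypes came with separate groups only in HET.

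The OAS genes encode sensors of double-stranded RNA, of which the enzymes make oligoadenylates that switch on RNase L. All 6 fell, with a median of -0.77. Oasl1, a member without that enzyme activity that is known to hold back translation of Irf7, was at 70.8 and 54.0 CPM in WT control and 20.0 and 20.3 CPM in WT IL-6. In HET it was at 67.9 and 73.8 CPM in control and 40.4 and 32.0 CPM after IL-6, so the groups were apart in both genotypes but less far in HET. Its change was -1.31 ± 0.09 (edgeR adjusted p = 1.32e-07). Oas3, the longest enzyme of the family, went from 418 to 473 CPM in control libraries to 165 to 214 CPM in IL-6 libraries (-1.19 ± 0.06). Oasl2 fell by 0.89 ± 0.06 on the log2 scale. Oas2, the least changed, was at 194 and 176 CPM in WT control, 126 and 129 CPM in WT IL-6, 174 and 182 CPM in HET control and 131 and 128 CPM in HET IL-6 (-0.50 ± 0.06), again without overlap. Oas1a (-0.55 ± 0.07) and Oas1g (-0.65 ± 0.08) share sequence, with 57.6% of the 50-base stretches of Oas1a also in Oas1g, and their separate values are uncertain.

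Among the sensors and editors of RNA and Z-form nucleic acid all 6 genes fell, with a median of -0.68. Zbp1, which senses Z-form nucleic acid and can trigger necroptosis, had the largest change, -0.94 ± 0.08 (edgeR adjusted p = 1.53e-06). It was at 121 and 107 CPM in WT control, 45.7 and 50.7 CPM in WT IL-6, 93.6 and 121 CPM in HET control and 75.1 and 64.3 CPM in HET IL-6. Its WT IL-6 libraries were the lowest of the 8. Ddx58, which encodes RIG-I, fell by 0.81 ± 0.06 on the log2 scale, Dhx58, which encodes LGP2, by 0.70 ± 0.06, and Ifih1, which encodes MDA5, by 0.65 ± 0.08. Adar, the editor of double-stranded RNA, fell by 0.45 ± 0.07, with 16.8% of its exon bases shared with the overlapping gene Chrnb2, so its count is uncertain. Eif2ak2, the kinase PKR, changed least. It was at 128 and 160 CPM in WT control, 119 and 108 CPM in WT IL-6, 128 and 127 CPM in HET control and 99.3 and 95.5 CPM in HET IL-6 (-0.37 ± 0.07, edgeR adjusted p = 0.00142). The gap between treatments was narrow in WT and wider in HET.

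The ISG15 system attaches a ubiquitin-like protein, Isg15, to other proteins. All 5 genes of this group fell, with a median of -0.90. Isg15 was at 140 and 116 CPM in WT control, 49.5 and 50.0 CPM in WT IL-6, 135 and 153 CPM in HET control and 72.6 and 64.5 CPM in HET IL-6 (-1.22 ± 0.07, edgeR adjusted p = 2.31e-08). The HET IL-6 libraries were above both WT IL-6 libraries and below every control library. Usp18, which removes Isg15 and dampens the interferon receptor, fell by 1.08 ± 0.08 on the log2 scale, and Herc6, a ligase for Isg15 in mice, fell by 0.90 ± 0.08. Trim30a fell by 0.41 ± 0.07. Trim25, a ubiquitin ligase that acts on RIG-I, was at 388 and 340 CPM in WT control, 261 and 251 CPM in WT IL-6, 315 and 328 CPM in HET control and 297 and 273 CPM in HET IL-6. Its change of -0.34 ± 0.06 (edgeR adjusted p = 0.000806) was the only one of the 49 that lost its call under an alternative: it was -0.30 without both HET libraries numbered 2 (edgeR adjusted p = 0.0541).

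The enzymes that act on nucleotides and nucleic acids all fell, 4 of 4. Cmpk2, a mitochondrial nucleotide kinase whose gene neighbours Rsad2, was at 110 and 121 CPM in WT control, 36.8 and 35.4 CPM in WT IL-6, 104 and 118 CPM in HET control and 39.9 and 36.5 CPM in HET IL-6 (-1.61 ± 0.07, edgeR adjusted p = 4.05e-10). Rsad2, or viperin, which makes a chain-terminating nucleotide, fell by 1.55 ± 0.08 on the log2 scale. Rsad2 and Cmpk2 thus fell by nearly the same amount. Isg20, an exonuclease, fell by 1.51 ± 0.11. Samhd1, which removes the nucleotides needed for reverse transcription, was at 566 and 582 CPM in WT control, 448 and 410 CPM in WT IL-6, 526 and 569 CPM in HET control and 406 and 405 CPM in HET IL-6. The 4 IL-6 libraries lay below the 4 control libraries, but the change was small (-0.43 ± 0.06).

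Mx GTPases are known to trap viral particles or their polymerases, and Ifi47 belongs to the immunity-related GTPases that attack the vacuoles of parasites. Mx1 was at 95.6 and 102 CPM in WT control, 30.3 and 27.8 CPM in WT IL-6, 84.0 and 111 CPM in HET control and 40.1 and 35.9 CPM in HET IL-6 (-1.56 ± 0.08, edgeR adjusted p = 6.73e-09). Mx2, which GENCODE M21 annotates as a polymorphic pseudogene, fell by 1.19 ± 0.08 on the log2 scale. Both Mx genes had WT IL-6 libraries below HET IL-6 libraries. Ifi47 was low throughout, at 3.62 to 4.58 CPM in control libraries and 1.62 to 2.57 CPM in IL-6 libraries (-1.13 ± 0.16), and 8.77% of its exon bases overlap other genes.

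Of the membrane restriction factors Bst2 fell and Ifitm3 did not pass the test. Bst2, or tetherin, holds budding virus at the cell surface. It was at 365 and 333 CPM in WT control, 191 and 200 CPM in WT IL-6, 320 and 375 CPM in HET control and 243 and 260 CPM in HET IL-6 (-0.65 ± 0.06, edgeR adjusted p = 3.58e-06). Ifitm3, which blocks virus entry from endosomes, was at 914 and 733 CPM in WT control, 605 and 728 CPM in WT IL-6, 761 and 875 CPM in HET control and 845 and 853 CPM in HET IL-6. The treatment groups of Ifitm3 overlapped in HET and came within 728 and 733 CPM of each other in WT. It also had the highest level per length of the set, at 1164 CPM per kb over the 8 libraries, although 10.0% of its 50-base stretches occur in other genes. Ifi27l2a followed at 944 CPM per kb, and the next were Lgals3bp at 383 and Bst2 at 317 CPM per kb, so the 2 genes that were not called were also those with the highest levels per length.

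The ADP-ribosylation genes fell by similar amounts. Parp14, a large transferase, was at 531 and 554 CPM in WT control, 335 and 312 CPM in WT IL-6, 478 and 506 CPM in HET control and 320 and 312 CPM in HET IL-6 (-0.69 ± 0.06). Parp9 fell by 0.63 ± 0.06 on the log2 scale, and its partner, the ubiquitin ligase Dtx3l, by 0.61 ± 0.06. Parp9 and Dtx3l start head to head and overlap in 9.40% and 8.00% of their exon bases, so reads there cannot be assigned without the strand. The Schlafen genes, a family tied to the growth control of immune cells, fell by 0.66 ± 0.10 (Slfn8) and 0.58 ± 0.05 (Slfn5) on the log2 scale. Slfn8 was the lower of them, at 10.2 to 13.8 CPM in control libraries and 7.13 to 7.77 CPM in IL-6 libraries.

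The PYHIN genes Ifi203 and Ifi204, which encode DNA-binding proteins, and the nuclear Phf11 and Sp100 genes all fell, 5 of 5, with a median of -0.94. Phf11d was at 56.6 and 63.9 CPM in WT control, 28.1 and 25.7 CPM in WT IL-6, 49.3 and 58.0 CPM in HET control and 26.8 and 26.1 CPM in HET IL-6 (-1.09 ± 0.07, edgeR adjusted p = 6.35e-08). Its IL-6 libraries differed little between genotypes. Phf11b fell by 1.04 ± 0.08 on the log2 scale, with 47.0% of its 50-base stretches in other genes, and is uncertain. Ifi203 fell by 0.94 ± 0.09, Ifi204 by 0.79 ± 0.09 and Sp100, a nuclear body protein, by 0.62 ± 0.06.

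In the rest of the set 9 of 10 genes fell. The apolipoprotein L genes Apol9a and Apol9b had the largest relative changes at the lowest levels. Apol9b was at 5.34 and 4.37 CPM in WT control, 0.248 and 0.161 CPM in WT IL-6, 3.41 and 6.78 CPM in HET control and 0.622 and 0.648 CPM in HET IL-6 (-3.75 ± 0.27). Apol9a had 25 counts over the WT control libraries and 0 over the WT IL-6 libraries, which is at least 7.47-fold lower with a floor of 3 counts over the group. In HET Apol9a was at 0.612 and 0.795 CPM in control and 0.166 and 0.0608 CPM after IL-6. Of the 50-base stretches of Apol9b, 52.3% are also in Apol9a, so the split between them is uncertain, while both were lower after IL-6 in each genotype. Ifi44 fell by 1.68 ± 0.11 on the log2 scale, Epsti1 by 0.92 ± 0.06, Xaf1 by 0.84 ± 0.06, Rtp4 by 0.76 ± 0.07 and Ifi35 by 0.71 ± 0.08. Rtp4 and Ifi35 overlap other genes in 13.9% and 16.8% of their exon bases and are uncertain. Tor3a fell by 0.49 ± 0.06 and Lgals3bp, a secreted galectin-binding glycoprotein, by 0.46 ± 0.07. Ifi27l2a, which encodes a small membrane protein, was at 529 and 427 CPM in WT control, 332 and 394 CPM in WT IL-6, 380 and 474 CPM in HET control and 450 and 509 CPM in HET IL-6. Within WT Ifi27l2a fell (-0.40 ± 0.13, edgeR adjusted p = 0.0419), a call lost in 4 of 8 fits that each left out a library, and within HET its groups overlapped (0.17 ± 0.13).

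**Figure D3:**
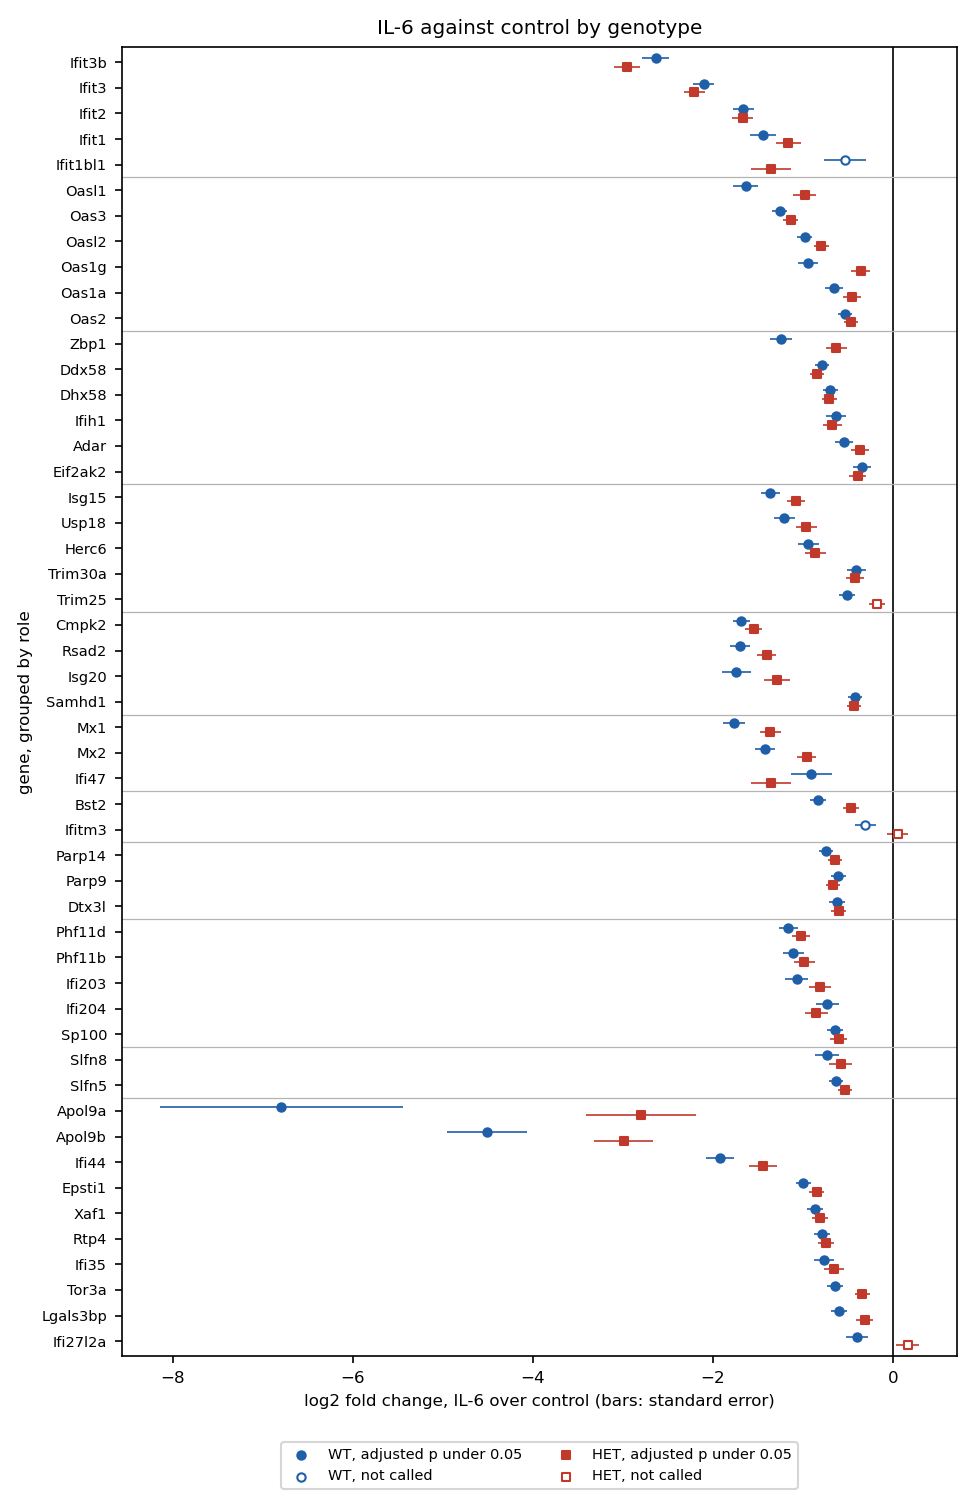
Log2 fold change of IL-6 over control (x axis, bars are standard errors) for each of the 51 genes (y axis, grouped by role) in WT (blue circles) and HET (red squares), filled where the adjusted p was under 0.05. All WT points and 49 of the 51 HET points lie below 0, and the point of Apol9a in WT is a fitted value against a group at 0 counts.

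The size of the change did not follow the promoter motif in any plain way. The 21 genes with the response element core had a median log2 change of -0.94, the 18 with a promoter but no match -0.89, and the 12 without a promoter in the table -0.73. Strong responders such as Cmpk2, Oasl1 and Ifit2 had no match in the window, and Ifitm3 had a pair. These medians are descriptions, and their differences were not tested.

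With no IL-6 added, the set differed little between genotypes. In control libraries 1 of the 51 genes was called, Ifi44, lower in HET, where 4.85% of all genes tested were called in either direction, 2.81% higher and 2.05% lower. Ifi44, an interferon-induced gene whose function is not settled, was at 82.5 and 88.6 CPM in WT control and 43.6 and 65.2 CPM in HET control (-0.65 ± 0.15, edgeR adjusted p = 0.0294). The HET libraries were below both WT libraries. Its call was lost in most of the 8 fits that each left out a library and so left 1 in a group. The number of genes called rose in some of those fits and fell in others. The median over the set was -0.07, against -0.004 over all genes tested. edgeR called 0 higher, with 1 gene higher and 2 lower at an unadjusted p under 0.05 (share of all genes not worked out). DESeq2 called 0 higher and 2 lower, where it called 6.06% of all genes in either direction.

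After IL-6 some of the genes were higher in the libraries labelled HET than in those labelled WT. By edgeR 13 of the 51 were called higher and 0 lower, where 13.2% of all genes tested were called higher and 8.8% lower. The 13 were Isg15, Isg20, Mx1, Mx2, Oas1g, Oas3, Oasl1, Ifi27l2a, Ifitm3, Zbp1, Bst2, Tor3a and Lgals3bp, at log2 differences of 0.26 to 0.84. The median over all 51 was 0.08, against -0.008 over all genes tested. At an unadjusted p under 0.05, 19 were higher and 3 lower, with the share of all genes at that threshold not worked out. DESeq2 called 13 higher and 1 lower, where it called 1591 of the 13721 genes higher and 1325 lower (21.3% in either direction). For 22 genes both HET IL-6 libraries lay above both WT IL-6 libraries, and for 11 below, where 32.7% and 32.3% of all genes tested did so. The IFIT genes were not among those called, at log2 differences from -0.48 ± 0.24 (Ifit1bl1) to 0.15 ± 0.14 (Ifit1).

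**Figure D4:**
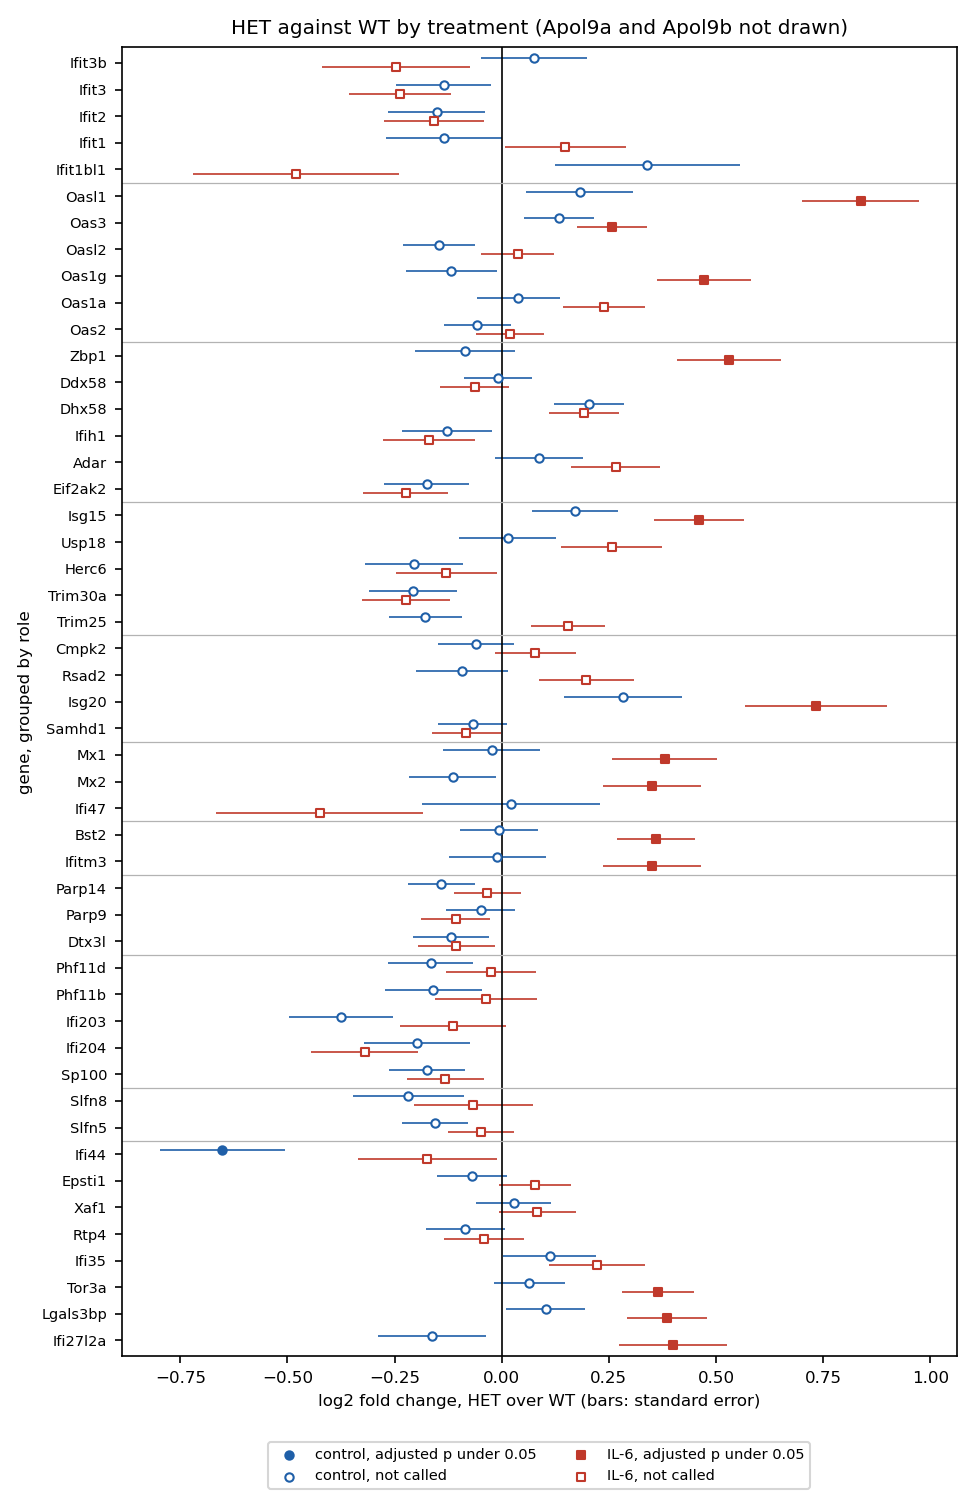
Log2 fold change of HET over WT (x axis, bars are standard errors) in control (blue circles) and IL-6 libraries (red squares) for 49 genes (y axis, grouped by role), filled where the adjusted p was under 0.05. In control 1 point is filled, Ifi44 at -0.65, and after IL-6 13 points are filled, all above 0, up to 0.84 for Oasl1. Apol9a and Apol9b, with few counts, are left out.

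Oasl1 had the largest of these differences, 0.84 ± 0.14 (edgeR adjusted p = 0.00107). Its HET IL-6 libraries, at 40.4 and 32.0 CPM, were both above the WT IL-6 libraries at 20.0 and 20.3 CPM, and it was the one gene of the 13 called in all 17 alternative analyses. Isg20 was at 7.42 and 6.95 CPM in HET IL-6 and 3.76 and 4.93 CPM in WT IL-6 (0.73 ± 0.17, edgeR adjusted p = 0.00761). Zbp1 differed by 0.53 ± 0.12, Oas1g by 0.47 ± 0.11 and Isg15 by 0.46 ± 0.11 on the log2 scale. Oas1a, which shares sequence with Oas1g, differed by 0.24 ± 0.10 and was not called (edgeR adjusted p = 0.0912). Lgals3bp was at 1049 and 1044 CPM in HET IL-6 and 754 and 848 CPM in WT IL-6 (0.39 ± 0.09, edgeR adjusted p = 0.0106). Tor3a, a protein of the endoplasmic reticulum, was at 125 and 115 CPM in HET IL-6 and 87.8 and 99.1 CPM in WT IL-6 (0.37 ± 0.08). All 13 genes called had both HET IL-6 libraries above both WT IL-6 libraries, as 32.7% of all genes tested did. The calls rest on those same libraries. Leaving out HET IL-6 number 1 turned the count of 13 into 1, leaving out WT IL-6 number 1 into 3, and leaving out HET IL-6 number 2 into 6. The share of all genes called in either direction also fell in these fits, from 22.0% to 8.07%, 6.21% and 6.42% in that order.

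Averaged over treatment, 7 genes were called higher in the HET libraries (Isg15, Isg20, Oas3, Oasl1, Dhx58, Tor3a and Lgals3bp), where 11.9% of all genes tested were called higher, and Ifi44 was called lower, where 7.99% were (19.9% in either direction). This average reuses the libraries of the preceding comparisons. Oasl1 differed by 0.51 ± 0.09 (edgeR adjusted p = 0.00274), Isg20 by 0.51 ± 0.11 (edgeR adjusted p = 0.00668) and Isg15 by 0.32 ± 0.07 (edgeR adjusted p = 0.0104). For Isg20 the control libraries were at 15.6 and 13.1 CPM in WT and 16.2 and 18.7 CPM in HET, a difference in the same direction that was not called by itself (0.28 ± 0.14). With offsets for GC content and length 1 of the 51 genes was called in place of 8, and leaving out 1 library gave 20 (WT control number 1 or WT IL-6 number 2), 4 (WT IL-6 number 1) or 3 (HET control number 2 or either HET IL-6 library) at the extremes. The share of all genes called moved with these counts, from 19.9% to 3.00% with the offsets, to 31.8% without WT control number 1 and 25.7% without WT IL-6 number 2, and to between 6.61% and 8.86% in the fits that gave 3 or 4.

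The IL-6 response itself was tested for a difference between genotypes, on the same 8 libraries as the comparisons above. It was called for 3 of the 51 genes, all with a smaller fall in HET, where 8.12% of all genes tested were called, 4.52% with a positive and 3.6% with a negative difference. Oas1g fell by 0.95 ± 0.11 on the log2 scale in WT and by 0.36 ± 0.11 in HET, a difference of 0.59 ± 0.15 (edgeR adjusted p = 0.0302). Its libraries were at 53.5 and 49.9 CPM in WT control, 24.7 and 29.1 CPM in WT IL-6, 44.9 and 50.4 CPM in HET control and 40.2 and 34.5 CPM in HET IL-6, so the genotypes were close in control and apart after IL-6. The split of reads between Oas1g and Oas1a is uncertain. For Oas1a the difference was 0.20 ± 0.14 and was not called (edgeR adjusted p = 0.426). Oasl1 fell by 1.63 ± 0.14 in WT and by 0.98 ± 0.13 in HET, a difference of 0.66 ± 0.19 (edgeR adjusted p = 0.0443). For Zbp1 the falls were 1.24 ± 0.12 and 0.63 ± 0.12, a difference of 0.62 ± 0.17 (edgeR adjusted p = 0.0391). Over the set the difference was positive for 38 of 51 genes, with a median of 0.14 against 0.017 over all genes tested. edgeR called 0 with a larger fall in HET. At an unadjusted p under 0.05, 13 genes were above and 1 below 0, with the share of all genes not worked out. DESeq2 called 4 positive and 0 negative, where it called 8.29% of all genes in either direction. Leaving out 1 library gave 0 to 10 calls: 0 when WT control number 1 was left out, and likewise when the first library of HET control or of HET IL-6 was, 1 without WT IL-6 number 1, 6 without HET control number 2 and 10 without WT control number 2. Of all genes, 8.12% were called with every library in, 5.22%, 2.13% and 2.95% in the fits that gave 0, 4.40% without WT IL-6 number 1, 4.83% without HET control number 2 and 14.9% without WT control number 2.

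**Figure D5:**
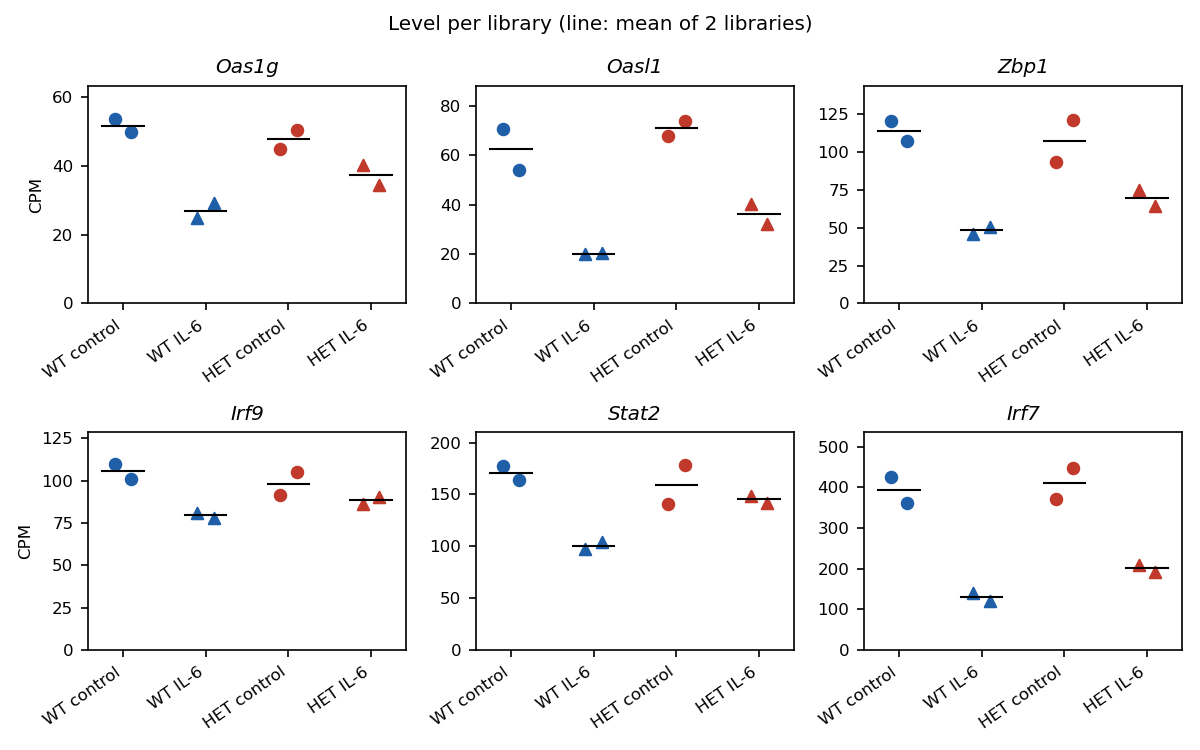
Level in CPM (y axis) in each library of the 4 groups (x axis), with a line at the mean of 2 libraries, for the 3 genes whose response differed between genotypes (Oas1g, Oasl1, Zbp1) and for the factors Irf9, Stat2 and Irf7. Stat2 was at 97.1 and 104 CPM in WT IL-6 and 148 and 142 CPM in HET IL-6, with the WT IL-6 libraries the lowest of the 8. The split of reads between Oas1g and Oas1a is uncertain.

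The steps upstream of these genes were examined through lists of pathway genes. The interferon genes themselves had few counts: 15 of 21 had 0 in all libraries, which allows up to 0.0608 to 0.161 CPM in a library by counting error, and the 21 together had 3 to 12 counts per library. Trex1, a widely expressed nuclease that lies within the span of the gene Atrip, was also at 0 in all libraries, so a 0 in this table does not by itself show that RNA was absent. Ifnb1, the interferon that macrophages make first, had 1 to 7 counts per library, too few to be tested. The receptor gene Ifnar1 rose after IL-6 averaged over genotype (0.26 ± 0.05, edgeR adjusted p = 0.00168), from 150 to 171 CPM in control libraries to 181 to 203 CPM in IL-6 libraries. Ifnar1 passed the test in WT (0.41 ± 0.07) and not in HET (0.11 ± 0.07, edgeR adjusted p = 0.332). The difference of its responses was not called (edgeR adjusted p = 0.0947). Ifnar2 was at 0.09 ± 0.06 (edgeR adjusted p = 0.296). Of the 9 receptor and kinase genes 8 were tested, of which 3 rose and 1, the kinase Tyk2, fell averaged over genotype (-0.26 ± 0.06). Of all genes tested, 23.6% were called in either direction. Tyk2 passed the test in WT (-0.44 ± 0.09) and not in HET (-0.08 ± 0.09, edgeR adjusted p = 0.628). The difference of its responses was not called (edgeR adjusted p = 0.106).

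Of 12 STAT and IRF genes 2 rose and 6 fell after IL-6, averaged over genotype, where 10.8% of all genes tested were called higher and 12.8% lower. Irf9 fell by 0.28 ± 0.06 (edgeR adjusted p = 0.00451) on that average. It passed the test in WT (-0.41 ± 0.09) and not in HET (-0.15 ± 0.09, edgeR adjusted p = 0.276). The difference of its responses was not called (edgeR adjusted p = 0.254). Irf7 was at 426 and 362 CPM in WT control, 141 and 121 CPM in WT IL-6, 371 and 449 CPM in HET control and 210 and 193 CPM in HET IL-6 (-1.31 ± 0.08, edgeR adjusted p = 2.3e-08). It fell in both genotypes and by less in HET, with a difference of 0.56 ± 0.16 (edgeR adjusted p = 0.0409). Stat2 was at 178 and 164 CPM in WT control, 97.1 and 104 CPM in WT IL-6, 141 and 178 CPM in HET control and 148 and 142 CPM in HET IL-6. It fell in WT (-0.77 ± 0.10) and did not pass the test in HET (-0.14 ± 0.10, edgeR adjusted p = 0.414), a difference of 0.63 ± 0.14 (edgeR adjusted p = 0.0167). Stat3, which carries the IL-6 signal, rose by 0.56 ± 0.06.

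Among 17 genes for sensors and adaptors that lead to interferon production, 16 were tested, of which 3 rose and 6 fell, beside the same shares of all genes. Tmem173, which encodes the DNA-pathway adaptor STING, rose from 75.8 to 86.9 CPM in control libraries to 140 to 155 CPM in IL-6 libraries (0.89 ± 0.06). Myd88, an adaptor of Toll-like receptors, rose by 0.58 ± 0.06. Unc93b1, the escort of endosomal Toll-like receptors, fell by 0.44 ± 0.06. It passed the test in WT (-0.68 ± 0.08) and not in HET (-0.20 ± 0.08, edgeR adjusted p = 0.103). Of 9 inhibitors of the pathway 1 rose, Ptpn1 (0.61 ± 0.05), a phosphatase that acts on Jak kinases, and 1 fell, Socs1 (-1.31 ± 0.17), from 2.75 to 3.31 CPM in control libraries to 1.20 to 1.28 CPM in IL-6 libraries. Those 2 calls among 9 genes are near the 23.6% of all genes called in either direction. Of 10 targets of interferon gamma 8 were tested, and 1 rose and 4 fell, where 10.8% and 12.8% of all genes did. Cxcl10, a chemokine also induced by type I interferon, fell from 66.4 and 81.4 to 43.8 and 42.2 CPM in WT and from 121 and 122 to 37.1 and 36.7 CPM in HET, so its fall was larger in HET (difference -0.94 ± 0.14, edgeR adjusted p = 0.00101). Fgl2, in contrast, rose by 2.54 ± 0.07 to 243 to 292 CPM in IL-6 libraries.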

How the data were processed

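The authors deposited raw gene counts, whole numbers of reads per gene, as a table of 55376 genes and 8 libraries. Per the submitters' processing notes the tools were fastp 0.12.4, STAR 2.7.9a, SAMtools 1.9 and featureCounts 1.6.2 with the build mm10. Neither the annotation used nor whether counting was by strand is given in the sources used here, so reads in exons shared by overlapping genes cannot be assigned. All columns were matched to libraries by name. Of the table's rows, 97.9% matched GENCODE M21 by position and symbol, which gave exon overlaps, and 26 symbols had turned into dates, none of them among the 51 genes.

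The 51 genes, their role groups and the pathway and cell marker lists were chosen with earlier results of these data known. From the counts, genes were kept with edgeR 4.0.16 (filterByExpr, minimum count 10) in R 4.3.3, leaving 13721, and libraries were scaled by TMM. All 8 libraries entered 1 robust quasi-likelihood fit with a mean for each group (4 residual degrees of freedom), and 2-sided p-values of its F test were adjusted over all tested genes by Benjamini-Hochberg. A gene was called at an adjusted p under 0.05. The standard error is the log2 change divided by the square root of F. The 7 comparisons were IL-6 against control and HET against WT, each averaged and within groups, plus the HET minus WT difference of the response. The script was tested on simulated data. CPM use TMM-scaled library sizes, and CPM per kb uses the table's gene length. Depth was 18926641 to 50137897 counts, so that 3 counts equal 0.0608 to 0.161 CPM, and such floors cover counting error only.

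Given in full were, per role group, the genes with the largest and smallest IL-6 change, every gene called for the difference of responses, and the 6 with the smallest p for HET against WT. Others are given by their change. Of each pathway list up to 4 genes with the smallest p were named, with Stat2, Irf9, Irf7, Ifnar1, Ifnar2, Ifnb1 and Dnmt3a always, and 1 gene of the lists is not reported here. The closing section also names other pathway genes called for the difference of responses, chosen after their values were seen. Sharing of sequence is the percent of 50-base stretches of a gene's M21 transcripts found in another gene's. No pair of libraries in a group agreed within sampling noise (chi-square per gene 6.39 to 18.4). Alternatives were other scalings, no filter, DESeq2 1.42.0, fits to 2 groups, leaving out libraries, a replicate block, and GC and length offsets (mgcv 1.9.3). The offsets and the block with the WT numbers crossed were added after seeing the data. A planned comparison of protein sequences was not run.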

Additional observations from a re-analysis of the deposited data

Results flagged for a closer look

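For 3 of the 51 genes the IL-6 response differed between the genotypes by a test of the difference itself, HET minus WT on the log2 scale: Oas1g by 0.59, Oasl1 by 0.66 and Zbp1 by 0.62. All 3 fell in both genotypes and by less in HET. Oas1g shares sequence with Oas1a, whose difference of 0.20 was not called (edgeR adjusted p = 0.426), so its own value is uncertain. The test called 8.12% of all genes tested, 4.52% with a positive difference, so the count of 3 is not above the share over all genes. Among the pathway genes the same test called Stat2 at 0.63, Irf7 at 0.56, Tlr4, the receptor for endotoxin, at 0.49, Unc93b1 at 0.48, Cxcl10 at -0.94 and Ciita, the master regulator of MHC class II, at -1.23. Cxcl10 kept its call in all 8 fits that each left out a library, Stat2 in 5, Oas1g in 4, Zbp1, Irf7, Tlr4, Unc93b1 and Ciita in 3, and Oasl1 in 2. Cxcl10 also kept it in all 18 alternatives run. The Cxcl10 responses were -0.78 in WT and -1.72 in HET, and its genotypes lay further apart in control than after IL-6. For Ciita the responses were 0.46 in WT and -0.78 in HET. For Tlr4 the HET response was a rise of 0.46 with no called change in WT (-0.04), and its control libraries were at 182 and 201 CPM in WT and 132 and 140 CPM in HET. These differences reuse the control libraries of both genotypes. The RNA level of Dnmt3a did not separate the genotypes, which are known from the labels alone.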

How the results depend on the processing

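The falls after IL-6 kept their direction in every alternative: 48 of the 49 called over both genotypes were called in all 18 alternatives (Trim25 was the exception), 43 of 49 within WT and 31 of 48 within HET in all 19. No gene called in any comparison changed sign. The median fall in HET was -0.67 without both HET libraries numbered 2, in place of -0.81, and the median difference of the responses was then 0.27 in place of 0.14. Genotype calls moved more, the share of all genes called moved in most of these fits too, and causes were not tested. With GC and length offsets 4.79% of all genes were called in control, 11.4% in IL-6 and 12.4% for the difference of responses. The main fit called 4.85%, 22.02% and 8.12%, and DESeq2 6.06% in control. With no filter 26592 genes were tested, so shares have another base. They were 11.8% averaged over treatment, 4.05% in control and 5.55% for the difference of responses. For HET against WT averaged over treatment (8 called), no filter gave 18, leaving out 1 library 3 to 20, without both HET number 1 libraries 3, without both numbered 2 2, and GC and length offsets 1 (3.00% of all genes called, in place of 19.9%). In control (1 called), no filter and DESeq2 gave 2, leaving out 1 library 0 to 3, without both HET number 1 libraries 0, and the offsets 0. In IL-6 (13 called), leaving out 1 library gave 1 to 18, without both HET number 1 libraries 3, without both numbered 2 5, and the offsets 8. For the difference of responses (3 called), no filter gave 6, leaving out 1 library 0 to 10, without both HET number 1 libraries 0, and the offsets 7.

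The deviations of same-numbered libraries correlated over genes at 0.15 between HET control and HET IL-6, where Dnmt3a also followed the number, at -0.11 between WT control and WT IL-6, and at -0.06 to 0.03 between genotypes. The column names put the number directly after the genotype, the same in control and IL-6, and do not say what it marks. With no label that says the numbers pair libraries, and not all correlations over 0.1, the numbers were not taken to pair them. With the replicate number as a block, 49 genes were called after IL-6 averaged over genotype, 47 in WT, 46 in HET, 6 for HET against WT averaged, 1 in control, 8 in IL-6 and 0 for the difference of responses. Of all genes, 20.99%, 15.9%, 15.7%, 14.3%, 2.47%, 16.7% and 5.33% were called in that order, each a lower share than in the main fit. With the block within genotype the counts were 49, 46, 44 and 0 for the IL-6 comparisons and the difference. The shares of all genes were 17.7%, 13.1%, 12.6% and 3.69%, again lower than in the main fit. With the WT numbers crossed, a setting added after seeing the data, the counts were 51, 50, 48 and 10. There 37.5%, 32.4%, 32.3% and 22.7% of all genes were called, in place of 23.6%, 18.3%, 18.3% and 8.12% in the main fit.

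Depth limits mainly Apol9a, Apol9b and the interferon genes, and 2 libraries per group limit every comparison of genotype.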
